A study of Mus musculus with 2 samples.

Results

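The genes described are 32 symbols of the 31053 measured features: 21 genes of glycolysis, namely its glucose and lactate transporters, enzymes and regulators, and 11 genes of the response to low oxygen through hypoxia-inducible factor (HIF). They were chosen by name from knowledge of the pathways, with earlier results of these data known. The 2 groups are kept apart below. All 32 symbols were found. Aldoa was listed under 2 features, so that the members covered 33 features. The cells came from the hepatocellular carcinoma (HCC) region of livers of C57BL/6 mice, aged 17 months, which had been on the CD-HFD diet for 15 months. One library was labelled control and the other was labelled as treated with an inhibitor of FABP5, a cytosolic carrier of fatty acids, from month 13. Diet, strain and age were the same in both groups. The tissue was digested with collagenase, and an Annexin V kit was used to enrich the cells before loading. The labels used here do not say how many mice stand behind each library or what the control mice received. With 1 library per group there was no replicate and no test. Each difference below is between these 2 libraries, and every interval is a 95% interval that covers counting error only.

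Glycolysis takes glucose, imported by transporters such as Slc2a1, through phosphorylation, splitting and a chain of oxidation and phosphate transfer to pyruvate. Pyruvate either enters mitochondria or is reduced to lactate and exported. HIF is a pair of subunits whose oxygen-regulated partner, Hif1a, is hydroxylated by the Egln enzymes and degraded when oxygen is present. When oxygen is scarce it accumulates, binds short DNA motifs and raises the transcription of many glycolytic genes and of genes such as Vegfa and Bnip3. Hif1a is controlled chiefly as a protein, so its mRNA is not a measure of HIF activity. In the liver, hepatocytes carry their own forms of several glycolytic enzymes, and neutrophils and monocytes are known to depend on glycolysis.

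The control library held 9493 barcodes and 53378693 UMIs (unique molecular identifiers, each tagging 1 captured mRNA molecule), and the inhibitor library 10649 barcodes and 68074929 UMIs. More than 25% mitochondrial UMIs were found in 23.2% and 8.31% of the barcodes. After limits and doublet removal 6461 and 8753 cells were kept, with medians of 3929 and 6281 UMIs. The libraries shared 29 barcodes, 17 of them among the kept cells. The kept cells formed 31 clusters, which were made without the 32 members and 58 related genes and of which 28 were named from markers in 18 classes. Names carry "-like" because they rest on markers alone. The class make-up differed: classical monocyte-like cells held 1.93% of the UMIs of kept cells in the control and 44.2% in the inhibitor library, and macrophage-like cells held 18.0% and 2.47%. Of the tissue's own parenchymal cells few were captured: 82 control and 144 inhibitor cells were hepatocyte-like. The 20 genes of secreted hepatocyte proteins, used here as a measure of free hepatocyte RNA, were lower in the inhibitor library in all 8 compared classes. Their median log2 ratios ran from -4.56 to -2.45, while their summed share differed less in some classes. It was 0.195% (control) and 0.104% (inhibitor) of UMIs in nonclassical monocyte-like cells, and 0.179% and 0.0138% in T cell-like cells. Their part in the differences below was examined only by subtracting an estimate of free RNA, as an alternative. That estimate, set by these genes, differed widely: in the Kupffer cell-like, macrophage-like, neutrophil-like and nonclassical monocyte-like classes it took 43.2% to 50% of the UMIs in the inhibitor library, where 50% was its upper limit, and 5.92% to 20.1% in the control.

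Promoter windows of 5 genes are shown, for the members on which the results turn. Slc2a1 and Pfkp were higher in the inhibitor library in several leukocyte classes. Ldha and Bnip3 were high in hepatocyte-like cells of both libraries, and Egln3 in those of the inhibitor library. Each window is the 250 bases before a RefSeq transcript start (GRCm38.p6), written 5′ to 3′ on the strand of the gene. Capitals mark the core letters of the hypoxia response motif, ACGTG or GCGTG, on either strand (CACGT and CACGC on the opposite strand).
Slc2a1 (chr4:119108495-119108744, plus strand): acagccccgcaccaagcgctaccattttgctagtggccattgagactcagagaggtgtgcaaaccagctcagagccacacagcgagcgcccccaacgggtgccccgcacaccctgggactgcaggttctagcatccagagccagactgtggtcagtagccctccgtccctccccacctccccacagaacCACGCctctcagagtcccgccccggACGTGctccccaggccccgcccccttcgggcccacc
Pfkp (chr13:6648772-6649021, minus strand): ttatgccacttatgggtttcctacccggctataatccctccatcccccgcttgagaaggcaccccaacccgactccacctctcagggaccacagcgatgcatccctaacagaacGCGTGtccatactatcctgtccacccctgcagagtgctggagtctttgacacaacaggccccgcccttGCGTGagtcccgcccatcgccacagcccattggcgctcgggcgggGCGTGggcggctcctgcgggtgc
Ldha (chr7:46845554-46845803, plus strand): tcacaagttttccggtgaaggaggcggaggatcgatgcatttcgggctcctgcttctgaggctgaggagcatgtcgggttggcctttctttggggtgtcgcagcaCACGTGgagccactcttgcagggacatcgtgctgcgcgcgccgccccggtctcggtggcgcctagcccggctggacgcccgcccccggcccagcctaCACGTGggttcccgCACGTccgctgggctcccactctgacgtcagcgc
Bnip3 (chr7:138909507-138909756, minus strand): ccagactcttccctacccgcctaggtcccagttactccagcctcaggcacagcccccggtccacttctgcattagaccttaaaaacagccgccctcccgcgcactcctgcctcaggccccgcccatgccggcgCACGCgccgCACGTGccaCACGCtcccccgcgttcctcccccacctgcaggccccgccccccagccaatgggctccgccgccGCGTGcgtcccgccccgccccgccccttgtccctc
Egln3 (chr12:54203875-54204124, minus strand): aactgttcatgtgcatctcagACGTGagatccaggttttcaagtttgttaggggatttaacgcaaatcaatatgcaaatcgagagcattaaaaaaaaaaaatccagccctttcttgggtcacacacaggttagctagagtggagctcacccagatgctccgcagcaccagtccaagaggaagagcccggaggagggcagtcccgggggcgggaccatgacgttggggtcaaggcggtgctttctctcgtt
The Slc2a1 window held 1 match to each motif and the Pfkp window 3 matches, all to GCGTG. The Ldha window shown held 5 matches, all to ACGTG, where the palindrome CACGTG counts as 2 overlapping matches, 1 on each strand. Ldha had another window, not shown, with 1 match, to GCGTG. The Bnip3 window held 5 matches, 2 to ACGTG and 3 to GCGTG. The Egln3 window held 1, whose first base lay 229 bases before the start. RefSeq windows were found for 29 of the 32 members, 45 windows in all. The members without one were Ndrg1, Ero1l and Bnip3l. At least 1 match to either motif was present in 36 of the 45 windows, or 80.0%, against 38.6% of all 32851 windows in the table. By group, 27 of 34 windows of glycolytic members and 9 of 11 of HIF members held one. These are shares of windows and not of genes. Some genes have several windows, and those of Eno1, Aldoa and Pfkm partly overlap, so that the same match can be counted more than once. A match is only a run of letters, and these windows were not compared for base composition.

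In the whole libraries the summed glycolytic level was higher in the inhibitor library, and 13 of the 21 members were above their control level. Levels are given as CPM, the UMIs of a gene for every 1000000 UMIs of the class or library. The 21 glycolytic members together took 3023 CPM (3005 to 3041) over all kept control cells and 4134 CPM (4117 to 4151) over those of the inhibitor library, 1.37-fold more. The 11 HIF members took 333 CPM (327 to 339) and 393 CPM (388 to 398). A member was called when its CPM differed at least 1.5-fold and it had at least 50 UMIs in both libraries together. By this rule 7 of the 21 glycolytic members were higher and 1 lower, where 8.85% of all 13120 features were called higher and 24.8% lower. The 7 were Slc2a1 (17.4 against 36.7 CPM), Pfkp, Pgk1, Pgam1, Eno1, Pkm (324 against 629 CPM) and Slc16a3 (28.5 against 56.7 CPM). Aldoc, the brain form of aldolase, was the lower one, at 3.32 and 2.01 CPM. Of the HIF members, Hif1a (59.5 against 91.2 CPM) and Ankrd37 (7.51 against 18.7 CPM) were called higher and Adm lower.

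Much of that difference went with the make-up of the libraries. When the inhibitor library's level in each class was weighted by the control library's class shares, over the 14 classes with at least 25 cells in both, the glycolytic sum was 3432 CPM, against 3085 CPM in the control. The fold was then 1.11, and that of the HIF sum was 1.00 (332 and 334 CPM). At equal shares Pkm went from a 1.94-fold to a 1.26-fold difference, Eno1 from 1.57-fold to 1.18-fold and Pgam1 from 1.52-fold to 1.08-fold. Pfkp went from 53.0 and 79.7 CPM in the whole libraries to a 1.48-fold difference at equal shares, so that most of its difference was kept. Slc16a3 was 1.54-fold, Slc2a1 1.43-fold and Ankrd37 1.61-fold higher at equal shares. The monocyte and macrophage classes together held 24.4% of control and 56.9% of inhibitor UMIs. They held 37.4% and 77.6% of all Pkm UMIs, and 33.2% and 79.3% of those of Slc16a3. The reading at equal shares rests on the same class borders as the comparisons below. Its 14 classes count the unnamed cells as a class, with 7.48% of control and 1.95% of inhibitor UMIs. They also include the hepatocyte-like cells, which lay in different clusters in the 2 libraries.

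**Figure D1:**
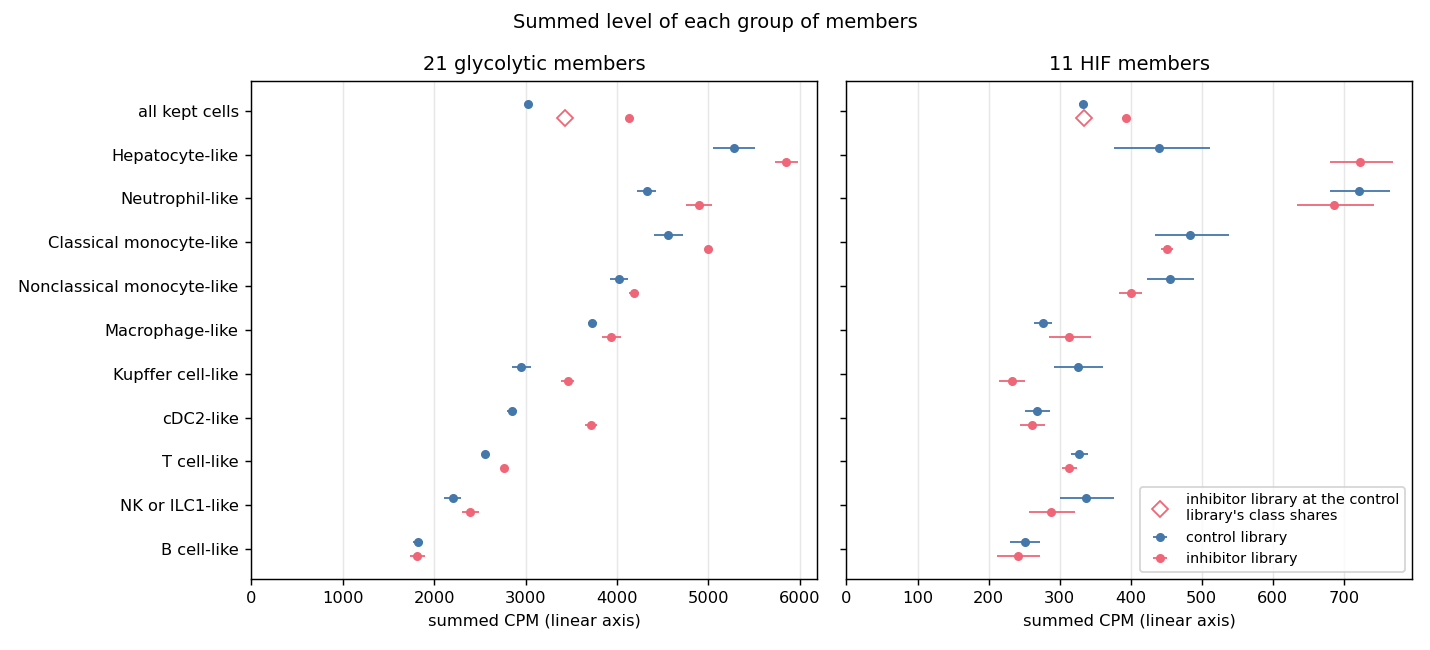
Summed CPM (linear axes) of the 21 glycolytic members (left) and the 11 HIF members (right) in all kept cells and in 10 classes, for the control and the inhibitor library, with exact Poisson 95% intervals. The open diamond gives the inhibitor library at the control library's class shares, over the 14 classes with at least 25 cells in both libraries. For glycolysis it lies at 3432 CPM, where the control over the same classes had 3085 CPM (not drawn). The points for all kept cells lie at 3023 CPM (control) and 4134 CPM (inhibitor).

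The members divided the cell types by which form of each step they carried. In the control library neutrophil-like cells had the highest glycolytic sum among classes with at least 100 cells, 4324 CPM, followed by nonclassical monocyte-like cells with 4023 CPM and macrophage-like cells with 3728 CPM. Plasmacytoid dendritic cell-like and B cell-like cells were lowest, at 1798 and 1822 CPM, with intervals that overlapped. In the inhibitor library hepatocyte-like cells (5851 CPM), classical monocyte-like cells (4990 CPM) and neutrophil-like cells (4897 CPM) were the highest, and B cell-like cells had 1814 CPM. Among the 3 highest classes of each library the counting intervals did not overlap, except those of classical monocyte-like and neutrophil-like cells in the inhibitor library (4962 to 5018 and 4756 to 5042 CPM).

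The glucose transporter Slc2a1 was highest in neutrophil-like cells, with 84.0 CPM (control) and 85.2 CPM (inhibitor). No other class with at least 100 cells exceeded 20.1 CPM in the control or, in the classical monocyte-like cells, 51.5 CPM in the inhibitor library. The lactate exporter Slc16a3 had the same leading class (317 and 481 CPM), followed by nonclassical monocyte-like cells (103 and 124 CPM). It was at or near 0 in B cell-like cells (2 UMIs, 0.913 CPM, and no UMI, which allows up to 2.88 CPM). Pfkfb4, which makes the activator of phosphofructokinase, stood at 129 and 142 CPM in neutrophil-like cells and at 32.5 and 28.8 CPM in macrophage-like cells. Pkm, the pyruvate kinase of leukocytes and tumours, was highest in neutrophil-like cells at 809 and 982 CPM. Neutrophil-like cells thus led for a glucose importer, pyruvate kinase and a lactate exporter, while they were lowest of all for the liver-type phosphofructokinase Pfkl (16.1 and 19.4 CPM).

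Both hexokinases varied among the classes. Hk1 was highest in T cell-like cells in the control (43.1 CPM). In the inhibitor library it was highest in neutrophil-like cells (42.0 CPM), followed by T cell-like cells (37.7 CPM). Hk2 stood at 4.86 and 5.74 CPM in T cell-like cells and at 83.7 and 51.9 CPM in macrophage-like cells. Conventional dendritic cell 2-like (cDC2-like) cells had 77.4 and 77.6 CPM of Hk2. Pfkp, the platelet-type phosphofructokinase, was highest in T cell-like cells in the control (81.4 CPM) and in cDC2-like cells in the inhibitor library (122 CPM). Pdk1, which inhibits pyruvate dehydrogenase, was highest in T cell-like cells in both libraries, at 25.6 and 27.2 CPM. Slc16a1, another lactate and pyruvate transporter, was measured only in T cell-like cells among the compared classes (9.09 and 12.3 CPM). The muscle-type phosphofructokinase Pfkm was at most 2.81 CPM in any compared class and was measured in none.

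Hepatocyte-like cells carried another version of the pathway. They were not compared between libraries, because 80 of the 82 control cells fell in 1 cluster and 140 of the 144 inhibitor cells in another, so values are given side by side. Lactate dehydrogenase A, Ldha, stood at 831 CPM (743 to 927) in hepatocyte-like control cells and 1471 CPM (1409 to 1535) in those of the inhibitor library, where the highest level of a compared leukocyte class was 330 and 471 CPM, in cDC2-like cells. Gapdh was at 2374 and 2276 CPM and Tpi1 at 445 and 348 CPM, both above every compared leukocyte class. Pkm was low, at 93.2 and 78.9 CPM, Hk1 at 0 and 2.09 CPM and Pfkp at 0 and 4.19 CPM. Pklr, the liver pyruvate kinase, stood at 31.1 and 153 CPM. Pfkfb3, an activator of phosphofructokinase, had 1 UMI (2.59 CPM) in the control and 69 UMIs (48.2 CPM) in the inhibitor cells. Slc16a1 had 2 UMIs (control) and 43 UMIs (inhibitor).

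**Figure D2:**
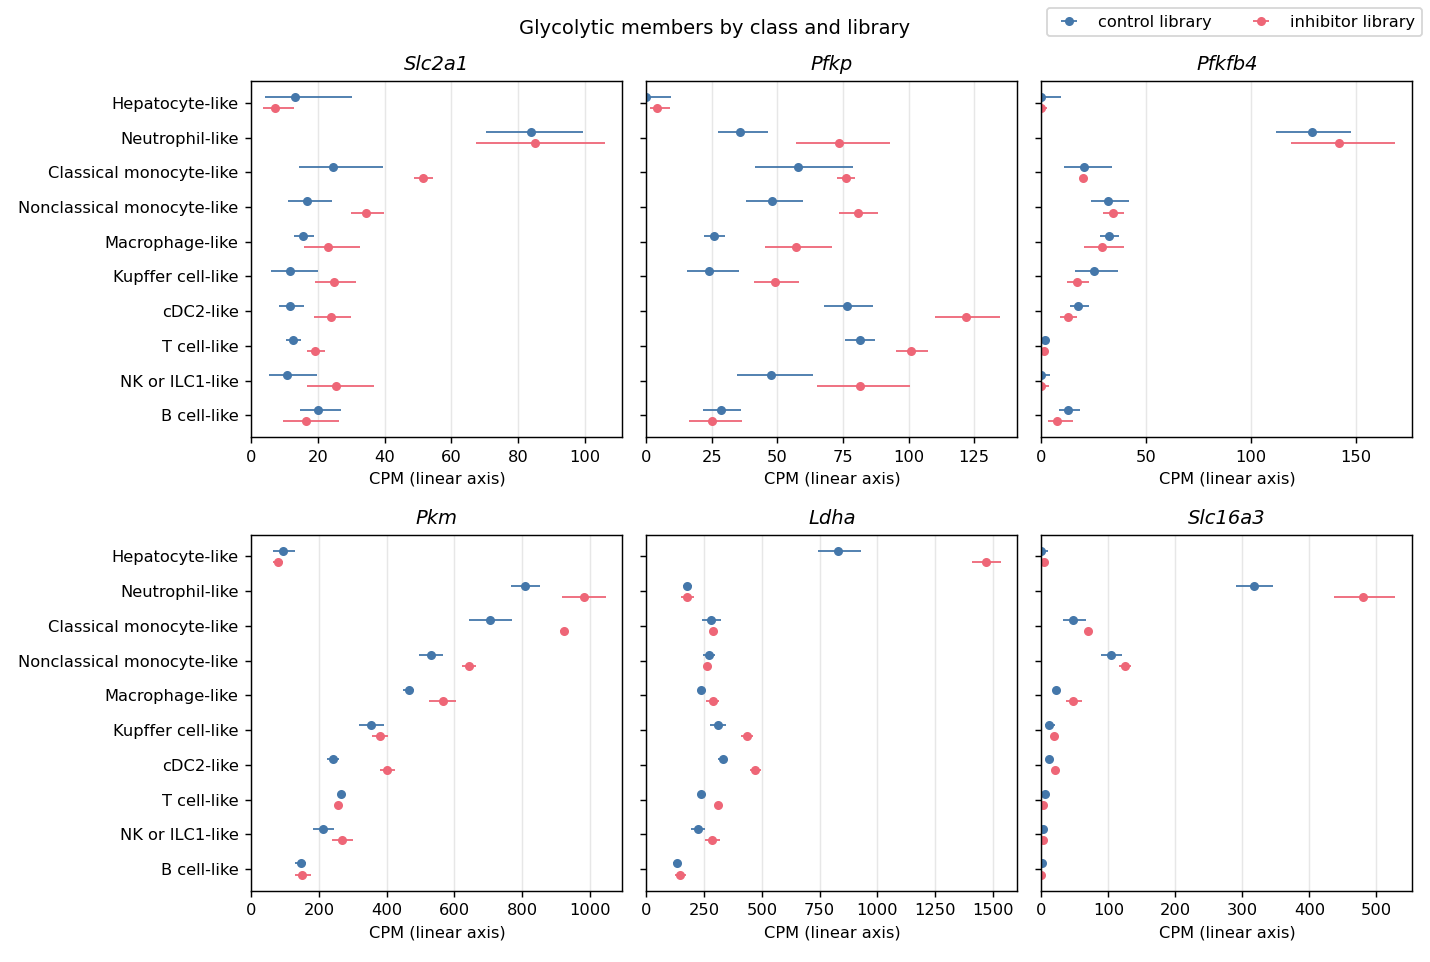
CPM (linear axes, different in each panel) of 6 glycolytic members in 10 classes, control and inhibitor library, with exact Poisson 95% intervals. Slc2a1, Pfkfb4, Pkm and Slc16a3 are highest in neutrophil-like cells, Ldha in hepatocyte-like cells (831 and 1471 CPM), and Pfkp is higher in the inhibitor library in most leukocyte classes.

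Between the libraries, the glycolytic members did not move as 1 block within classes. The classes compared were the 8 in which both libraries had 100 cells or more, and 130 pairs of a glycolytic member and a class had the 50 UMIs needed. Of these, 17 were called higher in the inhibitor library and 9 lower. By class, 2.75% to 12.2% of all features were called higher and 5.36% to 18.1% lower. Measured in all 8 classes were 10 of the 21 members, and 20 in at least 1 class. Pgk1, a kinase that yields ATP, was above its control level in all 8 classes, and Ldha, Pkm, Eno1, Gapdh and Pfkp in 7. Among those, Pgk1, Ldha, Eno1 and Gapdh stayed under 1.5-fold in every class. Tpi1 and Aldoa were higher in 3 and 4 of the 8.

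The middle steps of the pathway moved little. Gpi1, which turns glucose phosphate into fructose phosphate, had log2 ratios between -0.06 and 0.18 over the 8 classes. Aldoa, the aldolase of most tissues, ranged from -0.29 in macrophage-like cells (514 and 421 CPM) to 0.38 in cDC2-like cells (239 and 310 CPM). Tpi1 and Gapdh, which follow it, ranged from -0.33 to 0.31 and from -0.04 to 0.36. Pgk1 ranged from 0.03 to 0.54, Pgam1 from -0.14 to 0.41 and Eno1, the main enolase, from -0.16 to 0.31. None of these 7 genes was called in any compared class. Aldoc was measured in cDC2-like cells only (8.12 and 12.0 CPM).

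Pfkp, which commits sugar phosphate to glycolysis, was the member called in the most classes. It was called higher in 6 of 8: the cDC2-like, Kupffer cell-like, macrophage-like, NK or ILC1-like, neutrophil-like and nonclassical monocyte-like cells. In neutrophil-like cells it went from 35.8 to 73.3 CPM (log2 ratio 1.03, 0.51 to 1.56). In macrophage-like cells it was 25.6 and 56.9 CPM (1.15, 0.75 to 1.55). In Kupffer cell-like cells it was 24.0 and 49.1 CPM (1.03, 0.41 to 1.71). In these 3 classes the control levels lay between 24.0 and 35.8 CPM, and the inhibitor library was at least 2.05-fold higher. Pfkp in nonclassical monocyte-like cells was 48.0 and 80.6 CPM (0.75, 0.40 to 1.11), and in cDC2-like cells 76.6 and 122 CPM (0.67, 0.44 to 0.90). In NK or ILC1-like cells it was 47.4 and 81.5 CPM (0.78, 0.24 to 1.34). That class holds 2 clusters, and within each the difference was smaller and its interval spanned 0: cluster 14 had 31.6 and 42.5 CPM, and cluster 16 had 94.5 and 118 CPM. Cluster 14 held 154 control and 103 inhibitor cells, and cluster 16 held 71 and 157. Pfkp in T cell-like cells was 81.4 and 101 CPM (0.31, 0.18 to 0.45), while in B cell-like cells the log2 ratio was -0.18 (-0.90 to 0.50).

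The transporter Slc2a1 was called higher in 4 of the 7 classes in which it was measured. In nonclassical monocyte-like cells it was 16.6 and 34.5 CPM (1.05, 0.47 to 1.69). In Kupffer cell-like cells it was 11.5 and 24.7 CPM (1.10, 0.20 to 2.13), from 12 and 66 UMIs. In cDC2-like cells it was 11.6 and 23.8 CPM (1.03, 0.46 to 1.63). The 3 were thus similar in both level and ratio. In T cell-like cells Slc2a1 was 12.5 and 19.2 CPM (0.62, 0.29 to 0.96). Cluster 0, the classical monocyte-like cluster with only 90 control cells against 3031, had 24.6 and 51.5 CPM of Slc2a1 (1.07, 0.38 to 1.85), and there 15.3% of all features were called higher and 14.5% lower. Neutrophil-like cells, where the gene was highest, differed little (0.02, -0.40 to 0.43), and B cell-like cells had 20.1 and 16.3 CPM (-0.30, -1.20 to 0.54). At the exit, Slc16a3 was called higher in neutrophil-like, macrophage-like, cDC2-like and Kupffer cell-like cells, the last with an interval that spanned 0, and lower in T cell-like cells (4.86 and 2.82 CPM, -0.78, -1.50 to -0.09), where 21 of its 46 control UMIs lay in cluster 13.

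Among the regulators, Pfkfb3 and Pdk1 were called lower in several myeloid classes. Pfkfb4 was measured in 5 classes, was above its control level in 2 and was called in none. Pfkfb3 was called lower in 3 of the 5 classes in which it was measured. It was 25.2 and 12.0 CPM in nonclassical monocyte-like cells (-1.08, -1.65 to -0.48), 23.9 and 10.8 CPM in macrophage-like cells (-1.15, -2.02 to -0.38), and 18.6 and 9.82 CPM in cDC2-like cells (-0.92, -1.59 to -0.28). It was 33.6 and 37.1 CPM in Kupffer cell-like cells (0.14, -0.43 to 0.74), an interval that spans 0. Pdk1 was called lower in the same 3 classes as Pfkfb3, and the interval excluded 0 in cDC2-like cells only (11.9 and 4.75 CPM, -1.32, -2.28 to -0.44). Hk2 was lower in macrophage-like cells (83.7 and 51.9 CPM, -0.69, -1.07 to -0.33) and neutrophil-like cells (47.5 and 29.1 CPM, -0.71, -1.40 to -0.06). Its level in cDC2-like cells was nearly equal (0.00, -0.25 to 0.26).

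**Figure D3:**
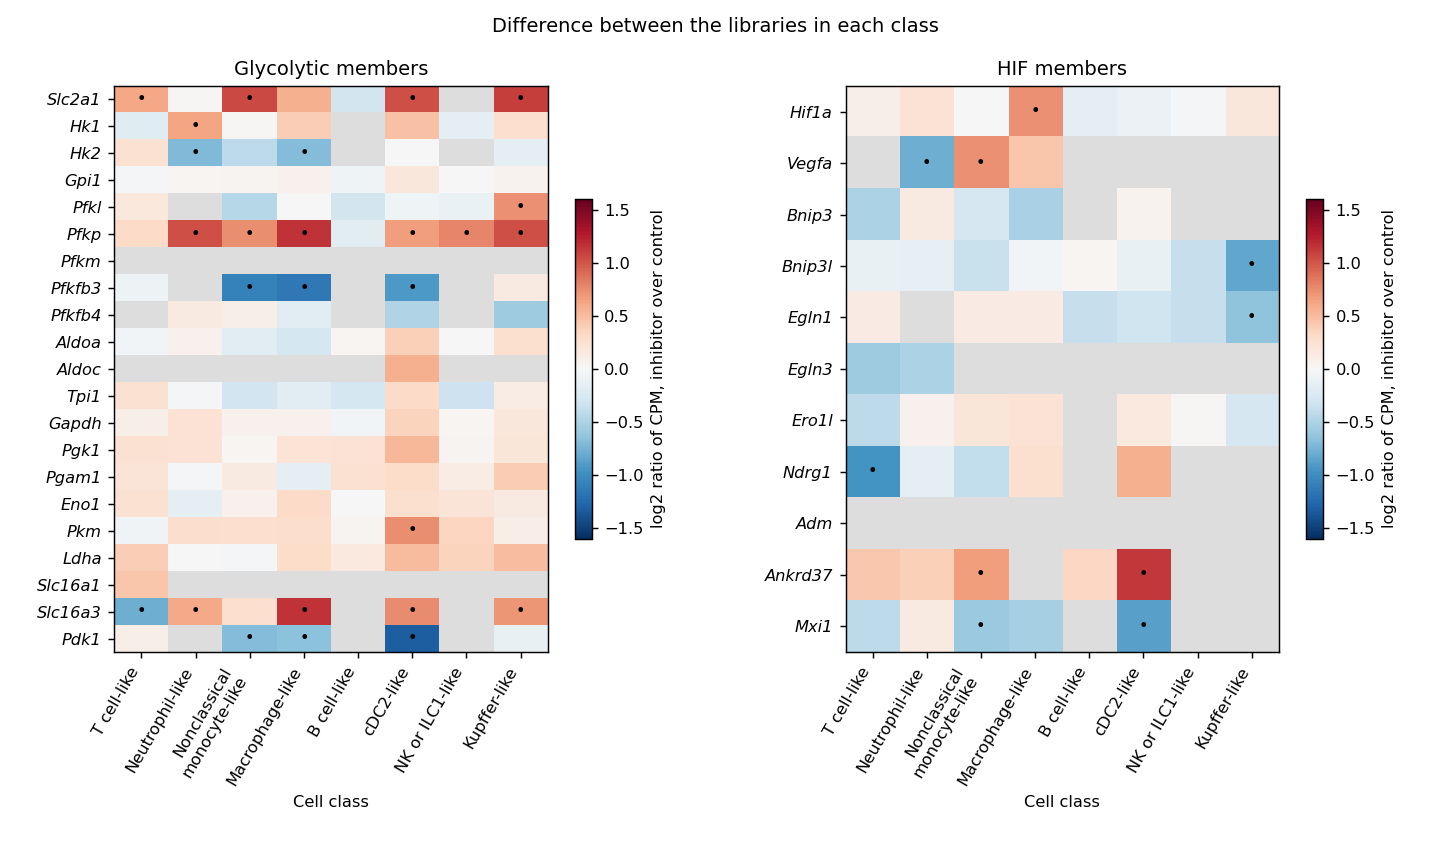
Log2 ratio of CPM, inhibitor over control, for each glycolytic member (left) and each HIF member (right) in the 8 compared classes. Red is higher and blue lower in the inhibitor library, a point marks a difference of at least 1.5-fold, and grey marks pairs with fewer than 50 UMIs. The row of Pfkp holds 6 points, all higher, and that of Pfkfb3 holds 3, all lower.

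Taken by class, cDC2-like cells had the largest median log2 ratio over measured glycolytic members, 0.36 over 19 members against 0.09 over all 7523 features. There 4 members were called higher, where 8.02% of all features were, and 2 lower, where 6.42% were. The 4 were Pfkp, Slc2a1, Slc16a3 (12.2 and 20.6 CPM, 0.76, 0.18 to 1.35) and Pkm (241 and 402 CPM, 0.74, 0.61 to 0.87). Over the alternatives Slc16a3 here ranged from 0.30 to 1.04 and stayed past 1.5-fold under 7 of 12. Ldha in these cells was 330 and 471 CPM (0.51, 0.40 to 0.62). The cluster behind this class also carried markers of conventional dendritic cells 1, and its make-up was not resolved further.

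In Kupffer cell-like cells the glycolytic median was 0.18 over 18 measured members, against 0.00 for all features, with 4 called higher (12.2% of all features) and 0 lower (13.3%). Pfkl was 25.9 and 43.1 CPM there (0.73, 0.12 to 1.40), and Ldha was 309 and 435 CPM (0.49, 0.31 to 0.68). Median depth per Kupffer cell-like cell was 7103 UMIs (control) and 13732.5 UMIs (inhibitor), and its part in these ratios was not tested.

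In macrophage-like cells 2 of 18 measured members were called higher (9.44% of all features) and 3 lower (14.0%), with a median of 0.07 against 0.04. Slc16a3 was 21.4 and 47.6 CPM (1.15, 0.70 to 1.58). The class holds cluster 9 (387 and 148 cells), which also carried classical monocyte markers, and cluster 11 (393 and 25 cells). Within cluster 9 alone Pfkp was 29.8 and 59.4 CPM, Slc16a3 23.7 and 51.7 CPM, Pfkfb3 19.5 and 9.48 CPM and Hk2 89.8 and 51.7 CPM. The borders of this class moved with the settings, and Slc16a3 there ranged from a log2 ratio of -0.12 to 1.15 over the alternatives, and it stayed past 1.5-fold under 4 of 12. Hk2 ranged from -0.73 to 0.22, while Pfkp ranged from 0.60 to 1.16.

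In nonclassical monocyte-like cells, a single cluster, 2 of 18 measured members were higher (8.61% of all features) and 2 lower (8.72%), and the median was 0.04 against 0.01. In neutrophil-like cells 3 of 15 measured members were higher (4.37% of all features) and 1 lower (18.1%). The 3 were Pfkp, Slc16a3 (317 and 481 CPM, 0.60, 0.42 to 0.79) and Hk1, whose interval spanned 0. Slc16a3 here ranged from 0.27 to 0.71 over the alternatives and stayed past 1.5-fold under 8 of 12. Neutrophil-like cells held cluster 2 (662 and 546 cells) and cluster 18 (141 and 1 cells). Within cluster 2 alone Pfkp was 37.8 and 72.4 CPM, whereas Slc16a3 was 367 and 482 CPM and Hk2 43.1 and 29.2 CPM, both under 1.5-fold. The median mitochondrial share was 1.81% and 0.53% in neutrophil-like cells, and its part was not tested.

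T cell-like cells, the largest class with 2434 and 2583 cells, held clusters in different shares, among them cluster 10 (373 and 51 cells), cluster 13 (255 and 26) and cluster 21 (109 and 1), and cluster 5 (214 and 761). There 1 of 18 measured members was called higher (2.75% of all features) and 1 lower (7.48%). The glycolytic median was 0.19, against -0.04 for all features. Ldha was 235 and 309 CPM (0.40, 0.32 to 0.47), and it was higher in the 3 T cell-like clusters with the most cells: 199 and 276 CPM in cluster 1, 291 and 432 CPM in cluster 3 and 221 and 287 CPM in cluster 5. Gapdh in T cell-like cells was 800 and 853 CPM (0.09, 0.05 to 0.14) and Pkm 266 and 256 CPM (-0.06, -0.14 to 0.02). In NK or ILC1-like cells Pfkp was the 1 member called of 12 measured, where 3.97% of all features were higher and 5.90% lower. In B cell-like cells none of 12 was called, where 2.89% of all features were higher and 5.36% lower. The glycolytic median of B cell-like cells was -0.02.

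**Figure D4:**
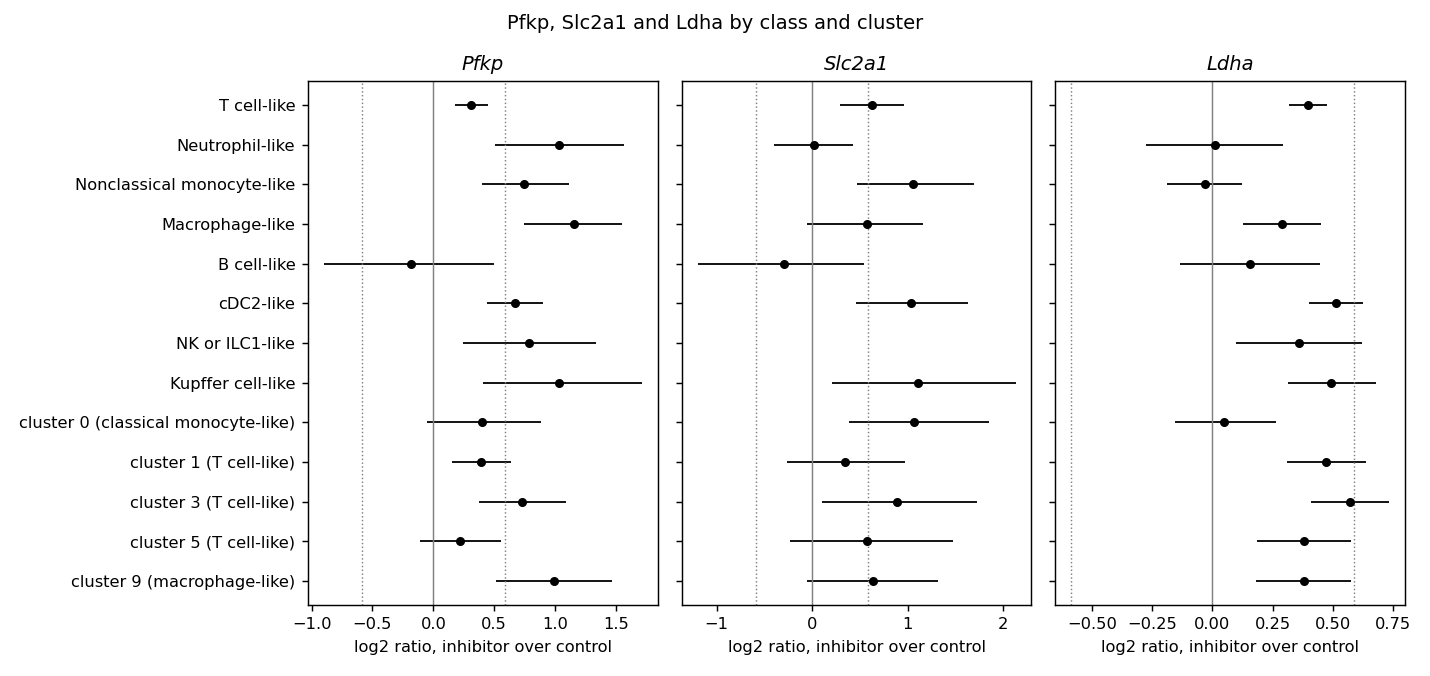
Log2 ratio of CPM, inhibitor over control, of Pfkp, Slc2a1 and Ldha in the 8 compared classes and in 5 clusters, with exact conditional 95% intervals. Dotted lines mark 1.5-fold, and Slc2a1 had fewer than 50 UMIs in NK or ILC1-like cells. Pfkp lies right of 0 in every row except B cell-like cells, and Ldha lies near 0 in neutrophil-like and monocyte-like cells.

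The HIF members were sparser. Of the 11, 10 were measured in at least 1 compared class and 2, Hif1a and Bnip3l, in all 8. Over 55 measured pairs 4 were called higher and 6 lower, where by class 2.75% to 12.2% of all features were higher and 5.36% to 18.1% lower. Their median log2 ratio was -0.42 in T cell-like, -0.46 in Kupffer cell-like and -0.19 in NK or ILC1-like cells, and between -0.06 and 0.18 in the other 5 classes. These medians rest on 4 to 9 members each.

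Neutrophil-like cells carried the highest leukocyte levels of most HIF targets, but not of Egln1, Ero1l, Ankrd37 or Adm. Vegfa, the vascular growth factor, stood at 68.5 and 39.9 CPM in them and at most at 10.8 and 18.7 CPM in any other compared class. Ndrg1, a stress-responsive gene, was at 77.2 and 69.0 CPM, and Mxi1, an antagonist of Myc, at 85.2 and 93.8 CPM. Bnip3, a mitophagy receptor, was at 65.4 and 72.2 CPM, and Egln3, the HIF prolyl hydroxylase that is itself a HIF target, at 29.0 and 20.5 CPM. In the other compared classes Egln3 was at most 3.75 CPM. Egln1, by contrast, was lowest in neutrophil-like cells among classes with at least 100 cells (19.1 and 12.9 CPM). For Ero1l neutrophil-like cells ranked 4 in both libraries (21.6 and 22.6 CPM). For Ankrd37 they ranked 2, behind B cell-like cells (21.6 and 28.0 CPM), and they had no Adm UMI. Hif1a itself varied less among the compared classes, from 39.9 CPM (NK or ILC1-like) to 85.2 CPM (neutrophil-like) in the control and from 39.3 to 100.2 CPM in the inhibitor library.

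Hepatocyte-like cells stood above neutrophil-like cells for Bnip3 in both libraries, and for Egln3 in the inhibitor library only. Bnip3 stood there at 186 CPM (control, 146 to 235) and 261 CPM (inhibitor, 235 to 289). Egln3 was at 20.7 CPM (8.94 to 40.8), from 8 UMIs, and 94.2 CPM (79.0 to 112). The inhibitor library's hepatocyte-like cells were 2.55% of UMIs and held 60.8% of all Egln3 and 40.5% of all Bnip3 UMIs of the library. Hif1a was at 18.1 and 41.2 CPM and Vegfa at 2.59 and 13.3 CPM in hepatocyte-like cells, so the targets did not share 1 pattern. As above, different clusters hold these cells in the 2 libraries, their median depths were 2172 and 4261 UMIs, and no difference is drawn.

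Adm, the vasodilator peptide adrenomedullin, and Ndrg1 were chosen for mention in small classes after their values were seen. Of the 42 Adm UMIs in the control library, 13 lay in its 28 endothelial-like cells (61.8 CPM, 32.9 to 106). Ndrg1 was at 314 CPM (242 to 399) in the same cells. The inhibitor library held 2 endothelial-like cells and 14 Adm UMIs in all, and the whole-library levels of Adm were 1.17 and 0.25 CPM. At equal class shares, over classes that leave out the endothelial-like cells, they were 0.76 and 0.27 CPM.

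**Figure D5:**
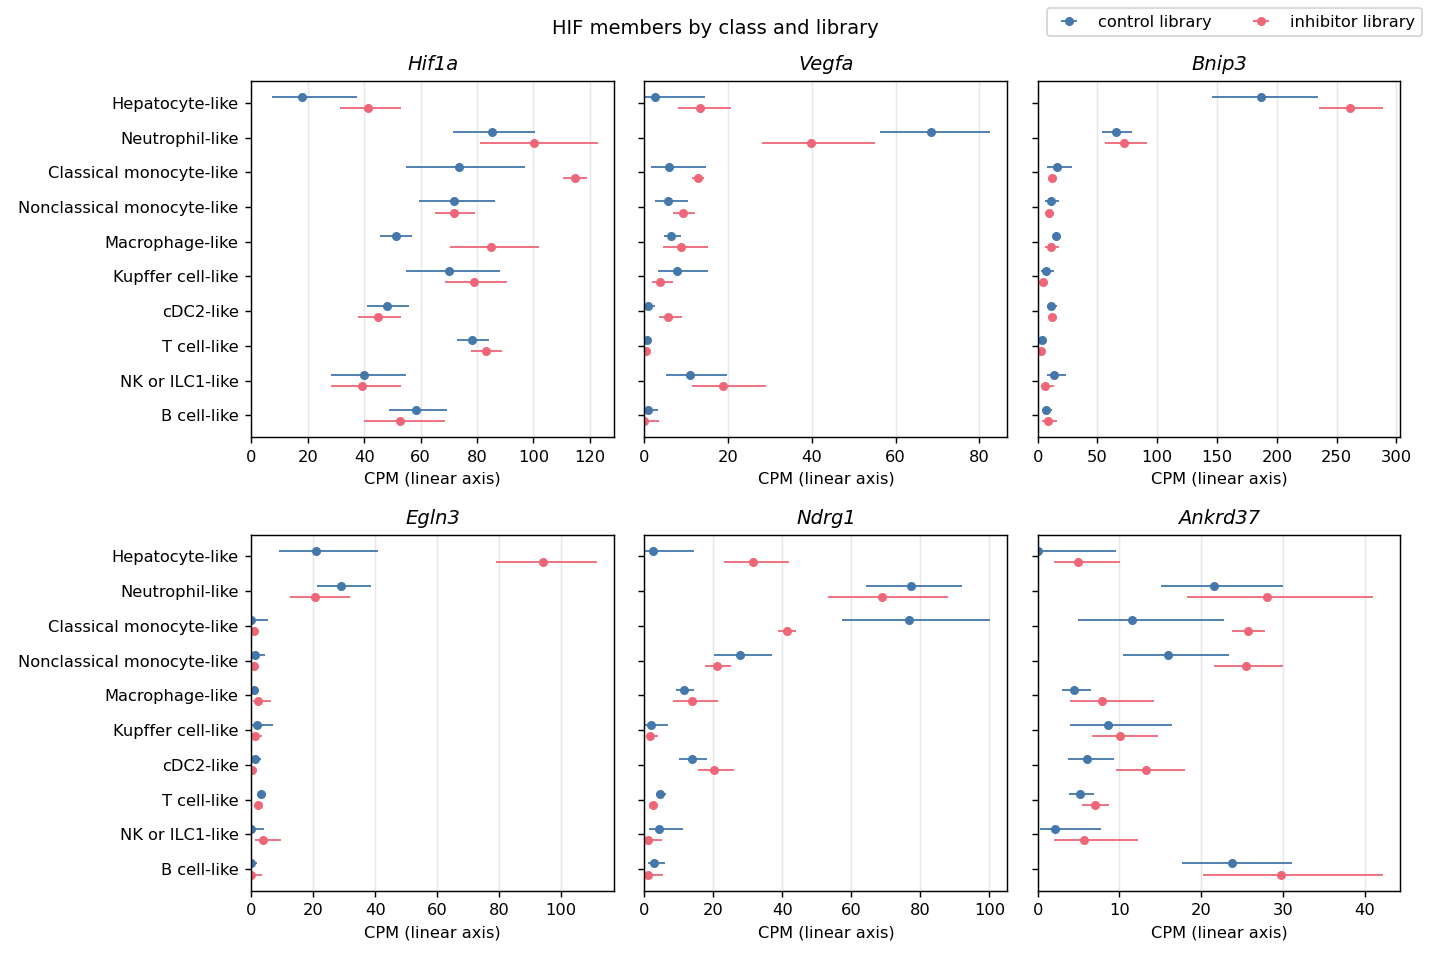
CPM (linear axes, different in each panel) of 6 HIF members in 10 classes, control and inhibitor library, with exact Poisson 95% intervals. Vegfa, Ndrg1, Bnip3 and Egln3 stand high in neutrophil-like cells, and Bnip3 (186 and 261 CPM) and Egln3 (20.7 and 94.2 CPM) in hepatocyte-like cells, while Hif1a is spread over all classes.

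Between the libraries Hif1a was called higher in macrophage-like cells, at 51.1 and 85.1 CPM (0.73, 0.42 to 1.04), where 9.44% of all features were higher. It was also higher in the classical monocyte-like cluster 0 (73.7 and 115 CPM, 0.64, 0.24 to 1.07). In nonclassical monocyte-like cells it was 72.0 CPM in both libraries (-0.00, -0.30 to 0.31), and in T cell-like cells 78.3 and 83.2 CPM (0.09, -0.05 to 0.23). The T cell-like value mixes clusters. Hif1a was 49.1 and 70.8 CPM in cluster 1 (0.53, 0.20 to 0.86). It was 53.4 and 126 CPM in cluster 10 (1.24, 0.54 to 1.89, from 81 and 26 UMIs). In clusters 3, 5 and 8 the interval spanned 0. Cluster 3 held 334 of the 741 control UMIs of the class and had the highest level of those given, 189 and 196 CPM (0.06, -0.16 to 0.28). Cluster 5 had 34.8 and 40.6 CPM (0.22, -0.27 to 0.75), and cluster 8 had 74.4 and 82.5 CPM (0.15, -0.31 to 0.62). In cluster 9 of the macrophage-like cells Hif1a was 53.5 and 91.3 CPM. Over the alternatives its ratio in macrophage-like cells ranged from 0.22 to 0.74, and it stayed at 1.5-fold or more in 5 of 12.

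Vegfa was lower in neutrophil-like cells (68.5 and 39.9 CPM, -0.78, -1.36 to -0.23), the 1 of 9 measured HIF members called there, where 18.1% of all features were lower. Within cluster 2 it was 68.1 and 40.0 CPM. In nonclassical monocyte-like cells Vegfa was 5.54 and 9.19 CPM, from 9 and 53 UMIs, with an interval that spanned 0 (0.73, -0.30 to 1.94). In macrophage-like cells it was 6.37 and 8.65 CPM (0.44, -0.62 to 1.40). The class richest in Vegfa and the monocyte-derived classes thus had ratios of opposite sign, of which only the neutrophil one was clear of 0.

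Ankrd37, an ankyrin repeat gene induced by HIF, was above its control level in all 5 classes in which it was measured and was called in 2. It was 6.09 and 13.3 CPM in cDC2-like cells (1.13, 0.34 to 1.96) and 16.0 and 25.5 CPM in nonclassical monocyte-like cells (0.67, 0.06 to 1.33). The sign of the latter turned under 5 of 12 alternatives, whereas the former ranged from 0.82 to 1.30. Mxi1 was lower in the same 2 classes, at 12.8 and 6.97 CPM in cDC2-like cells (-0.87, -1.68 to -0.10) and 44.9 and 29.7 CPM in nonclassical monocyte-like cells (-0.60), which stayed past 1.5-fold under 3 of 12 alternatives. In cDC2-like cells 1 of 8 measured HIF members was thus called higher, where 8.02% of all features were, and 1 lower, where 6.42% were.

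In Kupffer cell-like cells 2 of 4 measured HIF members were lower, where 13.3% of all features were. Bnip3l, a mitophagy receptor related to Bnip3, was 143 and 80.2 CPM (-0.83, -1.14 to -0.52). After free RNA was subtracted no Bnip3l UMI was left in the inhibitor cells, and the log2 ratio to the floor of 3 UMIs was -6.74; under the other 11 alternatives it ranged from -0.95 to -0.63. Egln1, the main oxygen-sensing hydroxylase, was 36.4 and 23.2 CPM (-0.65, -1.25 to -0.03). Bnip3l was below its control level in 7 of 8 classes, and was under 1.5-fold in all of them but this one. Ndrg1 was lower in T cell-like cells (4.54 and 2.35 CPM, -0.95, -1.72 to -0.21), the 1 of 9 called, where 7.48% of all features were lower. It was also lower in cluster 0 (76.6 and 41.3 CPM, -0.89, -1.29 to -0.47). Ero1l, an oxidase of protein folding, was 1.34-fold lower in T cell-like cells (log2 ratio -0.42, -0.69 to -0.16, from 266 and 223 UMIs), under the 1.5-fold of a call, as it was in the other 6 classes in which it was measured. Within clusters 1, 3, 5 and 8 of the T cell-like cells it was not lower, with 16.9 and 17.8 CPM, 20.9 and 30.04 CPM, 17.0 and 18.2 CPM, and 16.9 and 17.4 CPM. Of the 266 control UMIs of Ero1l, 127 lay in cluster 13, so the class value moves with the share of that cluster. Bnip3 was called in none of the 5 classes in which it was measured, nor was Egln3 in its 2, and no HIF member was called in NK or ILC1-like or B cell-like cells.

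A few pairs lay at the border of the call. Just inside 1.5-fold were Mxi1 in nonclassical monocyte-like cells (1.51-fold lower) and Slc16a3 in neutrophil-like cells (1.52-fold higher). Just outside were Ndrg1 in cDC2-like cells (1.49-fold higher) and Slc2a1 in macrophage-like cells (1.48-fold higher).

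The other genes of both pathways, 28 glycolytic isoforms, liver forms and neighbouring enzymes and 30 HIF subunits, regulators and targets, gave mixed counts. In neutrophil-like cells 1 of 19 measured was higher, where 4.37% of all features were, and 5 lower, where 18.1% were. The higher one was Slc2a3, the second glucose transporter of leukocytes (246 and 382 CPM, 0.63, 0.42 to 0.84), which within cluster 2 was under 1.5-fold (283 and 383 CPM). Among the lower ones were Bhlhe40, a HIF-induced repressor (187 and 41.0 CPM, -2.19, -2.72 to -1.70), and Ier3, an early response gene (1462 and 779 CPM, -0.91, -1.03 to -0.79). Both were also lower within cluster 2, at 131 and 40.0 CPM and at 1305 and 781 CPM.

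In Kupffer cell-like cells 4 of 21 measured were higher (12.2% of all features) and 2 lower (13.3%). Hilpda, which coats lipid droplets in low oxygen, was 76.7 and 218 CPM (1.51, 1.17 to 1.87). Hmox1, the haem-degrading enzyme, was 954 and 1943 CPM (1.03, 0.93 to 1.13), and Ier3 was 61.4 and 132 CPM (1.10, 0.72 to 1.51). Cited2, a HIF-induced brake on HIF, was 164 and 59.6 CPM (-1.46, -1.78 to -1.14). Of these 4 HIF-linked genes Cited2 alone was lower. In macrophage-like cells 1 of 30 measured was higher (9.44% of all features) and 8 lower (14.0%), among them Ldhb, the heart form of lactate dehydrogenase (42.4 and 20.2 CPM, -1.07, -1.69 to -0.51), and Bhlhe40 (46.3 and 28.8 CPM, -0.68, -1.20 to -0.20).

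In nonclassical monocyte-like cells 2 of 28 were higher (8.61% of all features) and 5 lower (8.72%). Eno3, the muscle enolase, was 274 and 142 CPM (-0.95, -1.12 to -0.78), Cited2 was 110 and 65.9 CPM and Ddit4, an inhibitor of mTOR signalling, was 48.0 and 30.5 CPM. Hmox1 was 186 and 299 CPM (0.68, 0.51 to 0.86). In cDC2-like cells 4 of 24 were higher (8.02% of all features) and 3 lower (6.42%), with Ddit4 at 71.6 and 45.0 CPM (-0.67, -0.98 to -0.37). In T cell-like cells 1 of 31 was higher (2.75% of all features) and 2 lower (7.48%). In NK or ILC1-like cells 1 of 13 was called in each direction (3.97% and 5.90%), and in B cell-like cells none of 14 (2.89% and 5.36%).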

How the data were processed

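Droplet 3′ single-cell RNA-seq was deposited for 1 control and 1 inhibitor library. The deposited values are raw UMI counts per gene and barcode, written by Cell Ranger 5.0.1 per the file headers. The submitters' processing notes also name R 3.0, Seurat 3 and the build mm9, without saying for which step. Which build the counts rest on was not settled, and genome positions here come only from the RefSeq table (GRCm38.p6). The deposited barcodes already had at least 500 UMIs.

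Barcodes with at least 300 genes, 500 UMIs and at most 25% mitochondrial UMIs were kept. Doublets were scored against 2 simulated doublets per cell in each library, and the highest 0.8% per 1000 barcodes were removed (374 and 717). Both libraries were clustered together (2000 variable genes without the members and pathway genes, 30 components, 20 neighbours, Leiden resolution 1; Python 3.11.15, scikit-learn 1.9.0, leidenalg 0.10.2). Clusters were named from listed markers, each at least 2-fold above the median of the other clusters, with at least 3 markers. The scoring, not the markers, was revised once initial clusters were known, since macrophage clusters had been misnamed. The other clusters (3) stayed unnamed.

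For each library the UMIs of a class were added up and divided by its total (CPM). Levels have exact Poisson and ratios exact conditional binomial 95% intervals, which cover counting error only; the calculation was tested on simulated data. A count of 0 allows up to 3 UMIs. The members and lists were chosen with earlier results of these data known. Named members are those at least 1.5-fold apart with an interval that excludes 1, plus a few key genes in any class; other pathway genes needed 200 UMIs, up to 3 in each direction per class; across classes the 3 highest and the lowest level may be named. Exceptions are stated. With 1 library per group no test was made. Values of some related genes are not reported here.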

Additional observations from a re-analysis of the deposited data

How the results depend on the processing

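There were 13 alternatives, 12 of which apply to single members (mitochondrial, gene and UMI limits, doublet share, resolution, clustering choices, free RNA, centring). The subtraction of free RNA counts among the 12, though its estimate fails in neutrophil-like cells, as given above. Those that re-formed clusters compared classes with at least 25 cells per library, a limit chosen after the data were seen. Of 31 named values 16 stayed at least 1.5-fold the same way under all 12. The 17 higher and 9 lower glycolytic pairs changed most in the lower direction, to 3 at a mitochondrial limit of 10%, 5 at resolution 2 and 4 with each library clustered on its own. The 4 higher HIF pairs became 0 at the 10% limit and with at least 600 genes, 1 with double the doublets removed, at resolution 0.5 and with the members left in the variable genes, 2 without a mitochondrial limit and at resolution 2, and 7 at 20 UMIs. The 6 lower ones became 10 with no doublets removed and 12 after free RNA was subtracted. With own clustering the macrophage-like medians were -0.054 (glycolytic) and -0.40 (HIF), and at the 10% limit the nonclassical monocyte-like medians were -0.14 and -0.30. Signs turned for Hk2 in macrophage-like cells (0.22, own clustering), for Slc16a3 there (-0.12 at 600 genes, -0.037 with own clustering) and for Ankrd37 in nonclassical monocyte-like cells (-0.21 at the 10% limit, -0.69 with double the doublets, -0.14 at resolution 2, -0.42 with the members left in, -0.44 with own clustering); the cause was not tested. Pfkp stayed at least 1.5-fold higher under all 12 in 5 of its 6 classes and under 11 of 12 in cDC2-like cells. The 5 include NK or ILC1-like cells, where the difference within each cluster was smaller. All alternatives pool cells by class, so they cannot show the part of that mix of clusters. No paired analysis was possible because each group has 1 library.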
